A study of Bos indicus with 6 samples.

Results

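Glycolysis and lactate enzymes were followed in the isthmus of the oviduct, the narrow segment next to the uterus, in 6 Nelore (Bos indicus) cows. The members were fixed by symbol as HK1, HK2, GPI, PFKP, ALDOA, TPI1, PGK1, ENO1, LDHA and LDHB, and 9 of these 10 symbols stood on a row of the table, which lists 24616 genes. No row was matched to ENO1, so this enzyme is not analysed here. All 9 genes passed the filter on low and variable values. The table pairs each symbol with an Ensembl gene identifier of the bovine assembly UMD 3.1, and no gene positions, lengths or sequences of that build were used here, so the level of a gene is compared between cows but not with the level of another gene.

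The 6 isthmus libraries, 1 per cow, came from 3 cows of the LF/LCL group (617, 79 and 527), which ovulated a larger follicle and formed a larger corpus luteum, and 3 cows of the SF/SCL group (856, 489215 and 97), with a smaller follicle and corpus luteum. All cows were multiparous and healthy, were pre-synchronized with a prostaglandin F2α analog (0.5 mg of sodium cloprostenol) and a GnRH agonist (1 µg of buserelin acetate), and received a 1 g progesterone device with 2 mg of estradiol benzoate 10 days before the ovulatory GnRH injection. LF/LCL cows were also given the prostaglandin analog on the day of device insertion, and their device was removed 42 h before GnRH, whereas it was removed 30 h before GnRH in SF/SCL cows. Both groups received the prostaglandin analog at removal and again 6 h later, then GnRH on day 0, and the oviduct on the side of the corpus luteum was taken on day 4. The cows sequenced were not a random sample, since the study took the top-ranked LF/LCL and the bottom-ranked SF/SCL animals by follicle, corpus luteum and hormone measurements, and the ages of the cows are not given. The comparison asks whether the endocrine milieu around ovulation goes with a difference in oviductal transcripts.

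Glycolysis turns glucose into pyruvate in the cytosol, with a net gain of ATP and NADH, and lactate dehydrogenase then interconverts pyruvate and lactate. Hexokinase traps glucose in the cell, phosphofructokinase sets the pace, aldolase and triose phosphate isomerase deliver the triose phosphates, and the later enzymes recover ATP. Glucose, pyruvate and lactate are all constituents of oviduct fluid, where they serve gametes and the early embryo, and smooth muscle, which makes up much of the isthmus wall, is itself a glycolytic tissue.

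The values are normalized counts, that is, reads per gene scaled to a common library size with the size factors of DESeq. The libraries held 23899117 to 34193164 counted reads, and the members were counted with 907 to 16267 reads in a library, apart from HK2 with 57 to 1281. The library of SF/SCL cow 489215 stood apart from the rest, with the highest value of the 6 cows in 36.7% of the 15387 genes tested and the lowest in 35.7%. For this reason the group differences are given with and without it. All 7 smooth muscle marker rows and all 7 epithelial marker rows were detected in every library, and tissue of the whole oviduct wall was used. In such bulk tissue fewer cells of a type and less RNA per cell cannot be told apart.

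In the comparison of the 3 SF/SCL with the 3 LF/LCL cows, 0 of the 9 enzymes passed an adjusted p-value of 0.05 with limma, against 0% of all genes tested. None had an unadjusted p-value under 0.05 either, against 8.66% of all genes (4.19% higher in SF/SCL and 4.48% higher in LF/LCL), and edgeR and DESeq2 on the recovered reads also called 0 of the 9, against 0% and 2.66% of all genes. The log2 fold change, given throughout as SF/SCL over LF/LCL on the log2(value + 1) scale, was above 0 for 8 enzymes and below 0 for HK1, with a median of 0.21 that compares with -0.02 over all genes tested. Without cow 489215 it was above 0 for 3 enzymes and below 0 for 6, with a median of -0.11. In that fit HK2, GPI and ALDOA had an unadjusted p-value under 0.05, against 33.9% of all genes, and the same 3 enzymes had groups that did not overlap, against 52% of all genes. The 95% confidence intervals were between 0.88 (PFKP) and 4.53 (HK2) log2 units wide from their lower to their upper bound.

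**Figure D1:**
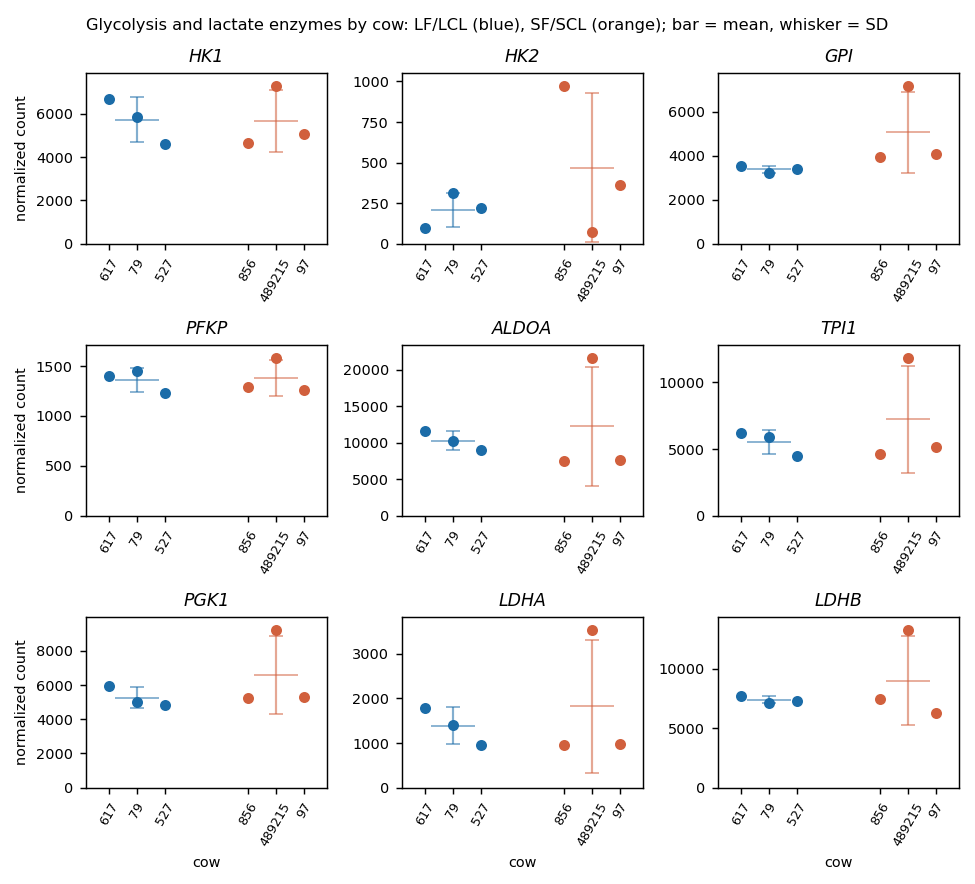
Normalized count of each of the 9 enzymes (vertical axes, from 0) in each cow (points; LF/LCL blue, SF/SCL orange), with the group mean (bar) and SD (whisker, n = 3). Cow 489215 holds the highest point in 8 panels and the lowest in the HK2 panel, and GPI is the one enzyme whose groups do not overlap.

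The hexokinases, which phosphorylate glucose at the entry of the pathway, behaved unlike each other. HK1, the form found in most tissues, had normalized counts of 6671, 5864 and 4623 in LF/LCL cows 617, 79 and 527 and of 4665, 7284 and 5047 in SF/SCL cows 856, 489215 and 97. The groups lay over each other, at 5719 ± 1032 and 5665 ± 1415 (SD, n = 3 each). For HK1 the log2 fold change was -0.03 (95% confidence interval -0.61 to 0.56, adjusted p = 0.982 with limma and Benjamini-Hochberg adjustment), and -0.22 without cow 489215. HK2, the insulin-responsive form typical of muscle and fat, had 99.4, 312 and 219 in the LF/LCL cows and 973, 75.9 and 360 in the SF/SCL cows in the same order. Cows 856 and 97 were therefore above all LF/LCL cows and cow 489215 below all of them, a spread far wider than that of any other member. The 57 HK2 reads of cow 489215 leave a Poisson 95% interval of 57.5 to 98.3 normalized counts for counting error alone, which reaches the lower part of that of cow 617, 80.4 to 122.

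The log2 fold change of HK2 was 0.66 (95% confidence interval -1.61 to 2.92, adjusted p = 0.898 with limma and Benjamini-Hochberg adjustment). Without cow 489215 it was 1.64 (0.25 to 3.03, adjusted p = 0.0996 with limma), and DESeq2 then called HK2 (adjusted p = 0.00851) where edgeR did not (adjusted p = 0.0823). Without cow 856 the sign turned, at -0.19, and without cow 79 or cow 97 the SD of HK2 exceeded its mean, so that the gene dropped out of the fit. Within SF/SCL the sum of the ciliated epithelium markers had cow 489215 lowest, as HK2 did. All 7 marker rows were detected, and their summed normalized count was 34041 in cow 856, 35630 in cow 97 and 11074 in cow 489215, against 13541 to 17270 in LF/LCL. The markers differed among themselves, since 3 of the 7 rows were lowest in cow 489215 while DNAI1 and CCDC39 were higher there than in any LF/LCL cow, and within LF/LCL cow 617 had the highest sum but the lowest HK2. The sum of the leukocyte markers was also lowest in cow 489215, at 4587, and highest in cow 856, at 8624. It was 6244 in cow 97 and 5111, 6152 and 6725 in LF/LCL cows 617, 79 and 527. Of its 8 rows 4 were lowest in cow 489215 and 1 was highest there. The part of either cell type in the HK2 values was not tested.

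Glucose-6-phosphate isomerase, encoded by GPI, turns glucose-6-phosphate into fructose-6-phosphate. GPI counts were 3541, 3219 and 3385 in LF/LCL cows 617, 79 and 527 and 3950, 7183 and 4066 in SF/SCL cows 856, 489215 and 97. Every SF/SCL cow was thus above every LF/LCL cow, which was true of 1 of the 9 members, while the groups failed to overlap in 18.1% of all genes tested. The group values were 3382 ± 161 and 5066 ± 1834 (SD, n = 3 each), and SF/SCL over LF/LCL was 0.53 on the log2 scale (95% confidence interval -0.11 to 1.16, adjusted p = 0.652 with limma and Benjamini-Hochberg adjustment). Without cow 489215 the difference was smaller and its interval narrower, at 0.25 (0.04 to 0.45, adjusted p = 0.0963 with limma). GPI kept a positive log2 fold change when any cow was left out, from 0.25 to 0.68. As a share of the reads of the 9 members, which depends neither on the size factors nor on the general level of the pathway in a library, GPI took 7.86%, 7.94% and 9.38% in the LF/LCL cows and 10.8%, 9.49% and 11.3% in the SF/SCL cows, in the same order. The shares did not overlap either, although cow 527 lay close to cow 489215. Such a share also depends on the other members. ALDOA, the largest of them, took 25.8%, 25.2% and 24.9% in the LF/LCL cows and 20.4%, 28.6% and 21.2% in the SF/SCL cows.

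PFKP, the platelet type of phosphofructokinase, had counts of 1405, 1455 and 1229 in the LF/LCL cows and of 1295, 1583 and 1257 in the SF/SCL cows. It varied least of the members over all 6 cows, although LDHB and GPI varied less within LF/LCL, and stood at 1363 ± 119 and 1378 ± 178 (SD, n = 3 each), with the groups fully interleaved. Its log2 fold change was 0.01 (95% confidence interval -0.43 to 0.45, adjusted p = 0.989 with limma and Benjamini-Hochberg adjustment), and -0.09 without cow 489215. The sign also turned with the scaling, as it was -0.077 with library totals, which put the median of all genes at -0.10.

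ALDOA, the muscle type of aldolase, which splits fructose bisphosphate into the triose phosphates, had counts of 11615, 10232 and 8979 in LF/LCL cows 617, 79 and 527 and of 7464, 21657 and 7631 in SF/SCL cows 856, 489215 and 97. Cows 856 and 97 were below every LF/LCL cow and cow 489215 was far above all of them. The group means of 10275 ± 1318 and 12251 ± 8147 (SD, n = 3 each) gave a log2 fold change of 0.07 (95% confidence interval -0.98 to 1.11, adjusted p = 0.976 with limma and Benjamini-Hochberg adjustment). Without cow 489215 the log2 fold change of ALDOA was -0.44 (-0.73 to -0.14) and just missed the threshold with limma (adjusted p = 0.0531) and edgeR (adjusted p = 0.0513), whereas DESeq2 called it (adjusted p = 0.0115). Among all genes without that cow, 18.2% were called by limma, 18.1% by edgeR and 25.2% by DESeq2.

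TPI1, which interconverts the triose phosphates, had counts of 6193, 5894 and 4516 in the LF/LCL cows and of 4665, 11850 and 5163 in the SF/SCL cows. The value of cow 489215 was again far above the others, which were interleaved. TPI1 had a log2 fold change of 0.26 (95% confidence interval -0.65 to 1.18, adjusted p = 0.898 with limma and Benjamini-Hochberg adjustment) and -0.16 without that cow. PGK1, the kinase of the first step that yields ATP, had 5952, 5012 and 4835 in LF/LCL and 5235, 9237 and 5279 in SF/SCL. Leaving out cow 489215 brought the log2 fold change of PGK1 from 0.27 (-0.37 to 0.92) to 0.00 (-0.27 to 0.27, adjusted p = 0.987 with limma). The latter interval is for the difference between the group means of the remaining cows, not between single cows.

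**Figure D2:**
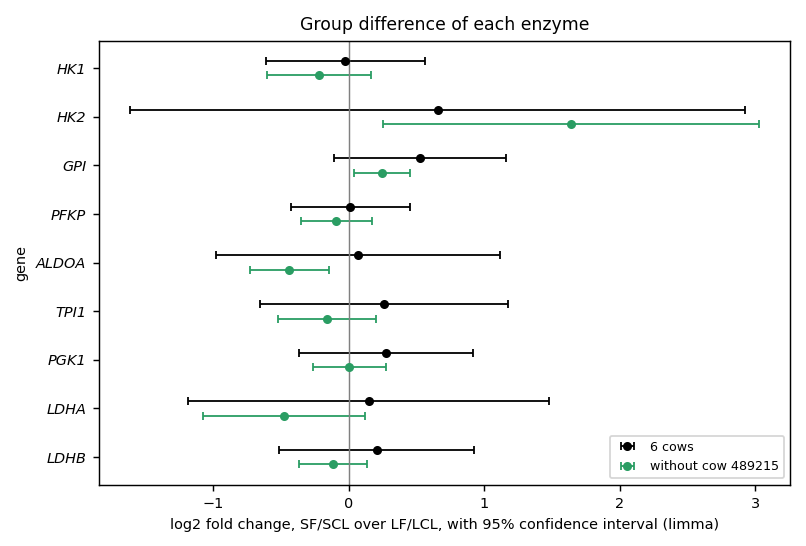
Log2 fold change of each enzyme, SF/SCL over LF/LCL, with its 95% confidence interval from limma (horizontal axis), from all 6 cows (black) and without cow 489215 (green). The intervals from 6 cows all include 0, and without cow 489215 those of HK2 and GPI lie above 0 and that of ALDOA below 0, although 0 of the 9 passed the adjusted threshold in either limma fit.

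Lactate dehydrogenase is built from the M subunit, encoded by LDHA and favoured in glycolytic muscle, and the H subunit, encoded by LDHB and favoured in oxidative tissue such as heart. LDHA had counts of 1793, 1414 and 957 in LF/LCL cows 617, 79 and 527 and of 946, 3541 and 983 in SF/SCL cows 856, 489215 and 97. It varied by 1.90-fold among the 5 cows other than 489215, which had 3.60 times their median. LDHB was steadier, with 7759, 7137 and 7334 in LF/LCL and 7448, 13312 and 6286 in SF/SCL. The log2 fold change was 0.15 for LDHA (95% confidence interval -1.18 to 1.48, adjusted p = 0.959 with limma and Benjamini-Hochberg adjustment) and 0.21 for LDHB (-0.51 to 0.92, adjusted p = 0.898 with limma). Without cow 489215 these were -0.48 and -0.11.

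Because both genes were read in the same library, their ratio does not depend on the scaling between libraries. The log2 ratio of LDHA to LDHB was -2.11, -2.34 and -2.94 in LF/LCL cows 617, 79 and 527 and -2.98, -1.91 and -2.68 in SF/SCL cows 856, 489215 and 97. The ratio spanned the same range in both groups, with means of -2.46 ± 0.43 and -2.52 ± 0.55 (SD, n = 3 each) and a difference of -0.06 (exact permutation test, two-sided, p = 0.9, where the smallest p-value possible is 0.1). For HK2 to HK1 the log2 ratio was -6.05, -4.23 and -4.40 in LF/LCL and -2.26, -6.57 and -3.81 in SF/SCL. The difference of this ratio was 0.68 (exact permutation test, two-sided, p = 0.7), and 1.86 without cow 489215 (exact permutation test, p = 0.2, which is the smallest that 3 against 2 cows can give).

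**Figure D3:**
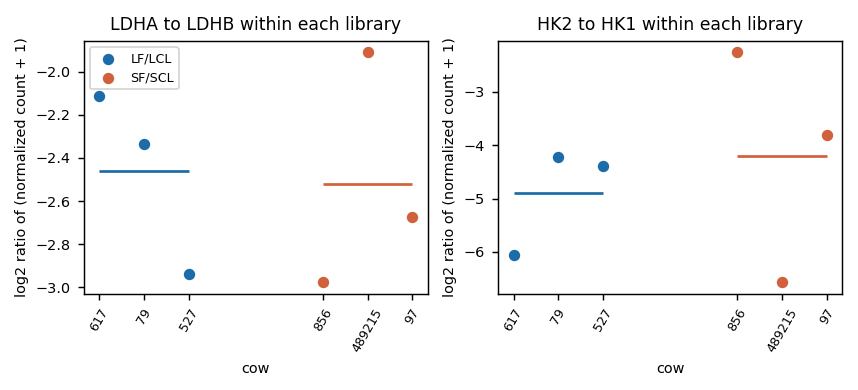
Log2 ratio of LDHA to LDHB (left) and of HK2 to HK1 (right) within each library (points; LF/LCL blue, SF/SCL orange), with the group means (lines). The LDHA to LDHB means are 0.06 apart, within the spread of either group, and cow 489215 has the highest LDHA to LDHB and the lowest HK2 to HK1 ratio.

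Cow 489215 had the highest value of the 6 cows for 8 of the 9 members and the lowest for HK2, while for 36.7% of all genes tested that cow was the highest. Relative to the median of the other 5 cows its value was 3.60-fold for LDHA, 2.41-fold for ALDOA, 2.29-fold for TPI1 and 2.03-fold for GPI, which 0.819%, 5.21%, 6.28% and 10.5% of all genes tested equalled or exceeded. It was 1.82-fold for LDHB, 1.76-fold for PGK1, 1.44-fold for HK1 and 1.22-fold for PFKP, which 15.1%, 16.6%, 28.4% and 39.1% of the genes equalled or exceeded. HK2 stood at 0.246-fold, and 8.83% of the genes were at least as low. By the share of genes that went as far, LDHA was the rarest of the members in that cow, although the HK2 value was further from the rest as a fold, and the high values of HK1 and PFKP were common among genes. The members together took 0.223% of the reads of cow 489215 and 0.138% to 0.168% in the other cows. That cow had the smallest size factor, 0.751, so the rank of a normalized count depends in part on scaling. As a share of reads, which does not use the size factors, 6 of the 9 members were highest there, and the matching percentage of all genes is not given here. By that share HK1 was higher in cows 617 and 79. PFKP was lowest in cow 489215, at 0.00467% against 0.00469% to 0.00541% in the other cows.

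Among the other cows, the members other than HK2 differed by at most 1.18-fold (PFKP) to 1.90-fold (LDHA) between the lowest and the highest cow, and 63.8% of all genes stayed within the upper of these folds. Within LF/LCL, 8 of the 9 members were higher in cow 617 than in cow 527, with HK2 as the exception, against 50.8% of all genes tested. The summed normalized count of the smooth muscle markers followed the same order of cows as ALDOA, with 1217820 in cow 489215, 825682 in cow 617, 750401 in cow 79 and 705137 in cow 527, and it was 386979 in cow 97 and 320565 in cow 856. ACTG2 was the smooth muscle marker without a row, and ACTA2, the smooth muscle actin, ran from 102587 in cow 856 to 533926 in cow 489215. Of the 7 smooth muscle rows 5 were highest in cow 489215, whereas MYH11, the smooth muscle myosin, had 116653 there, below every LF/LCL cow, and LMOD1 was also higher in cows 617 and 527. The sum of the epithelial markers was also highest in cow 489215, with 4 of its 7 rows highest and PAX8 lowest there, at 57447 against 24645 to 38553 in LF/LCL and 40795 and 48474 in the other SF/SCL cows. The red cell markers, whose cells depend on glycolysis, were near 0, with 7.03 to 26.6 normalized counts over 6 rows. Fibroblast markers summed to 380508 to 480244 in LF/LCL and to 184999 to 282289 in SF/SCL. Leukocyte markers, with 5111 to 6725 in LF/LCL and 4587 to 8624 in SF/SCL, and endothelial markers, with 11111 to 14606 and 9273 to 11635, spread less. The part of these cell types in the enzyme values was not tested.

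**Figure D4:**
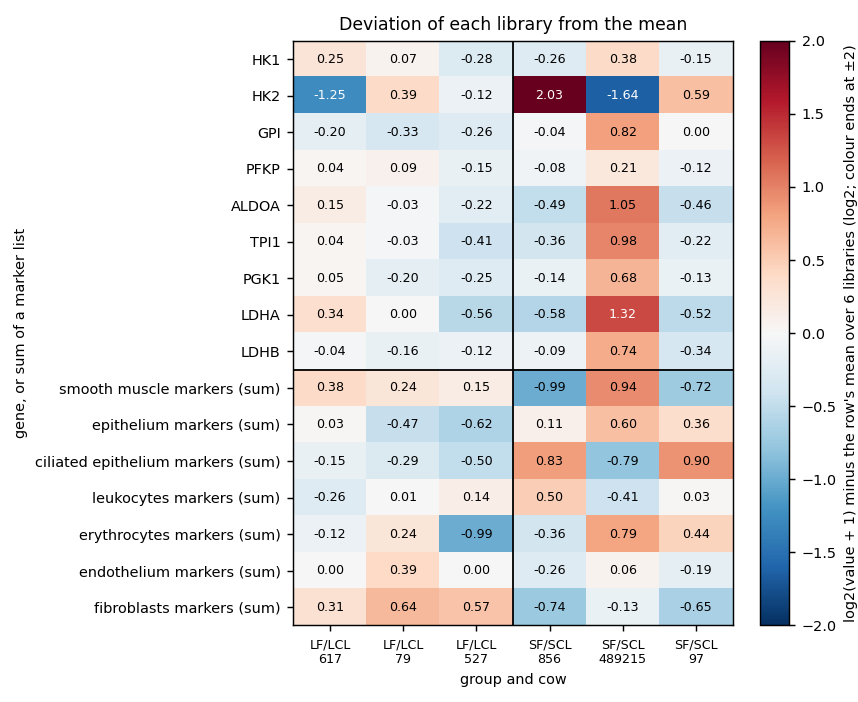
Log2(value + 1) of each enzyme (upper rows) and of the sum of each marker list (lower rows) in each library, minus the row's mean over the 6 libraries (log2 units; red above, blue below the mean). ALDOA, TPI1 and LDHA are 1.05, 0.98 and 1.32 above their mean in cow 489215, where the smooth muscle sum is 0.94 above its own and HK2 is 1.64 below.

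The likeness of the members to each other was measured as the root mean square difference of their log2 values over the 6 libraries, each gene centred on its own mean. It was 0.11 to 0.57 between members other than HK2, closest for PGK1 and LDHB, and higher for every pair with HK2, up to 1.81. By the same measure over the 13988 other genes tested that have a symbol, those most like LDHA were HSPB1, a small heat shock protein abundant in muscle (0.07), BOK, a BCL2 family member (0.08), and UQCRB, a subunit of respiratory complex III (0.12). HSPB1 had normalized counts of 31715, 28186 and 19500 in cows 617, 79 and 527 and of 18262, 66062 and 19620 in cows 856, 489215 and 97. The genes most like HK2 were IL1RN, the interleukin 1 receptor antagonist (0.27), LPCAT2, a lysophospholipid acyltransferase (0.36), and THRB, a thyroid hormone receptor (0.39).

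Of the other isoenzymes of the pathway, 19 of 21 symbols had a row and 18 were tested. None passed the adjusted threshold with limma or edgeR, DESeq2 called PKLR, and PKLR alone had with limma an unadjusted p-value under 0.05, with a median log2 fold change over the 18 genes of -0.17. Among all genes tested 4.48% had such a p-value and were higher in LF/LCL. PKLR, the pyruvate kinase of liver and red cells, had low counts of 50.2, 46.9 and 30.7 in LF/LCL cows 617, 79 and 527 and of 11.4, 10.7 and 9.75 in SF/SCL cows 856, 489215 and 97. Its groups did not overlap, and the log2 fold change of -1.88 (adjusted p = 0.367 with limma and Benjamini-Hochberg adjustment) was -1.89 without cow 489215, where it passed (adjusted p = 0.0261 with limma). With all 6 cows DESeq2 called PKLR, higher in LF/LCL (adjusted p = 0.00587), while edgeR did not (adjusted p = 0.375). PKLR was counted with 8 to 50 reads in a library. The abundant forms had smaller differences that did not pass, with log2 fold changes of 0.17 for PKM2 (the row of the pyruvate kinase of most tissues), 0.18 for PGAM1 (phosphoglycerate mutase), -0.01 for PFKL and -0.37 for PFKM (the liver and muscle phosphofructokinases). Without cow 489215 the values were -0.08 for PKM2, -0.14 for PGAM1 and -0.50 for PFKM, which did not pass with limma or edgeR. DESeq2 then called PFKM (adjusted p = 0.0476), against 25.2% of all genes, but neither PKM2 nor PGAM1. Without cow 489215 limma also called PFKL, at -0.44 (adjusted p = 0.0346 with limma). In that fit 7.92% of all genes were called as higher in LF/LCL and 10.3% as higher in SF/SCL.

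GAPDH, which the study used as a reference gene for qPCR, is listed at 0 in all 6 libraries, which allows up to 3 reads in a library. A separate row carries the symbol G3PDH, an abbreviation in use for glyceraldehyde-3-phosphate dehydrogenase and for glycerol-3-phosphate dehydrogenase, and the table does not say which is meant. That row, looked up after the 0 was seen, had 15718, 13293 and 11045 normalized counts in LF/LCL and 12234, 23600 and 13143 in SF/SCL, with cow 489215 again the highest. For the G3PDH row the log2 fold change was 0.24 (adjusted p = 0.890 with limma and Benjamini-Hochberg adjustment), and -0.06 without cow 489215.

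Of 10 regulators of the pathway, 8 were tested and 0 passed with limma, edgeR or DESeq2, with a median log2 fold change of 0.07, and 1 had an unadjusted p-value under 0.05. PFKFB3, the bifunctional enzyme that makes fructose-2,6-bisphosphate and so activates phosphofructokinase, had 2018, 1593 and 1744 in LF/LCL cows 617, 79 and 527 and 6821, 2315 and 3921 in SF/SCL cows 856, 489215 and 97. All SF/SCL cows lay above all LF/LCL cows, and the log2 fold change was 1.15 (95% confidence interval 0.22 to 2.09, unadjusted p = 0.0225 and adjusted p = 0.471 with limma and Benjamini-Hochberg adjustment). Without cow 489215 it was 1.54 and PFKFB3 passed (adjusted p = 0.00928 with limma), as did PFKFB2, another enzyme of that kind, at 0.59 (adjusted p = 0.0493 with limma), and PPP1R3C, a glycogen-targeting phosphatase subunit, at -0.99 (adjusted p = 0.0153 with limma). TXNIP, which restrains glucose uptake, had a log2 fold change of 0.10, and 0.13 without that cow.

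At the fate of pyruvate, 14 of 15 symbols were found and tested, and 0 passed with limma, edgeR or DESeq2, with a median log2 fold change of 0.01. PDK4, a kinase that inactivates pyruvate dehydrogenase, was the one gene with an unadjusted p-value under 0.05, with 661, 1864 and 3155 in LF/LCL and 3136, 5769 and 3892 in SF/SCL. The PDK4 groups touched, since cow 527 lay just above cow 856, and the log2 fold change was 1.39 (unadjusted p = 0.0485 and adjusted p = 0.574 with limma and Benjamini-Hochberg adjustment). Without cow 489215 that of PDK4 was 1.15 (unadjusted p = 0.0963 and adjusted p = 0.226 with limma). The subunits PDHA1, PDHB and DLD of the dehydrogenase complex had log2 fold changes of 0.07, 0.05 and -0.10. In the fit without cow 489215 those of PDHA1 and DLD were -0.23 and -0.21 and did not pass. In the same fit limma called PDHB at -0.39 (adjusted p = 0.0399), MPC1, a subunit of the mitochondrial pyruvate carrier, at -0.93 (adjusted p = 0.0256), and PC, pyruvate carboxylase, at 0.54 (adjusted p = 0.0376), the last pair named after their values were seen.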

How the data were processed

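Isthmus RNA of 6 cows was sequenced as polyadenylated RNA in paired ends. Before deposit, the authors cleaned the reads with seqyClean, mapped them to the masked assembly UMD 3.1 using TopHat2 2.0.8 and Bowtie2 2.1.0, and counted unique alignments per gene with HTSeq 0.5.4p2 (versions from the submitters' processing notes). Whether counting used the strand is not given in the sources used here. The deposited signal values are counts scaled by DESeq 1.12.1 size factors. Within 0.001, 100% of them were whole multiples of 1 read, and reads were recovered from these steps.

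As the values are normalized, limma 3.58.1 (R 4.3.3; lmFit and eBayes, both trend and robust options on) was applied to log2(value + 1). The 15387 genes whose mean exceeded 5 and their own SD were tested, with Benjamini-Hochberg adjustment and a threshold of 0.05. Count models on recovered reads (edgeR 4.0.16, quasi-likelihood, and DESeq2 1.42.0), other scalings, filters and pseudocounts, and fits leaving out each cow served as alternatives. The limma, edgeR and DESeq2 fits of all 6 libraries were tested on simulated data. The other scalings, filters and pseudocounts and the fits leaving out a cow were not. Samples were grouped by their titles, and each cow is 1 replicate. Intervals and floors from reads cover counting error only. Summaries used Python 3.11.15 with scipy 1.17.1. The members and lists were chosen with earlier results of these data known. Named in the text were the members, GAPDH, genes of each list with an unadjusted p-value under 0.05 or among its 4 highest means, and the 3 genes most like LDHA and HK2, and other genes are marked as named after their values were seen.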

Additional observations from a re-analysis of the deposited data

How the results depend on the processing

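No paired analysis was possible because the groups share no replicate numbers. The count of all genes called, 0 with limma, was 409 with DESeq2, and 0 to 2827 when each cow was left out, the high value being that without SF/SCL cow 489215. Without that cow edgeR called 2805 genes and DESeq2 3903, fits chosen after seeing the data, of which 0 and 2 were members. Otherwise 0 members were called, and their median log2 fold change ran from -0.11 to 0.42 when a cow was left out. Leaving out a cow moved the log2 ratio difference from -0.36 to 0.17 for LDHA to LDHB and from -0.29 to 1.86 for HK2 to HK1.

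Of the members, GPI kept its sign in all 17 alternatives, with a log2 fold change of 0.24 to 0.68. Leaving out each cow gave -0.22 to 0.10 for HK1, -0.19 to 1.64 for HK2, -0.091 to 0.075 for PFKP, -0.44 to 0.33 for ALDOA, -0.16 to 0.51 for TPI1, -0.48 to 0.47 for LDHA and -0.11 to 0.43 for LDHB. With all cows, the sign of PFKP turned with edgeR (-0.013), library totals (-0.077), TMM scaling (-0.015) and upper quartiles (-0.070), and that of ALDOA with library totals (-0.020) and upper quartiles (-0.013). Without cow 489215, edgeR and DESeq2 gave -0.10 and -0.10 for PFKP, -0.45 and -0.45 for ALDOA, -0.17 and -0.18 for TPI1, -0.0041 and -0.0085 for PGK1, -0.53 and -0.53 for LDHA, and -0.11 and -0.12 for LDHB. The cause was not tested. The spread between 3 cows a group was wider than the counting intervals for the members, HK2 included.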

Other observations

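Of the 8 pentose phosphate genes, which branch off at glucose-6-phosphate, all were tested and 0 passed limma's adjusted threshold or an unadjusted p-value of 0.05, with a median log2 fold change of 0.17. H6PD, an enzyme of the endoplasmic reticulum named after its values were seen, passed without cow 489215, at a log2 fold change of 0.67 (adjusted p = 0.0124 with limma). H6PD ran from 567 to 969 in 5 cows, while cow 489215 had 57.2. The log2 fold changes of TALDO1, TKT and PGD, which rearrange or oxidise the sugar phosphates, were 0.17, 0.25 and -0.06. Without cow 489215 these were -0.23, -0.03 and -0.38. None passed with limma or edgeR, while DESeq2 called PGD without that cow (adjusted p = 0.0267). Of 7 gluconeogenesis genes, 5 were tested and 0 passed, also without cow 489215. The log2 fold change was 0.32 for G6PC3, -0.47 for PCK2, 0.36 for FBP1 and -0.04 for FBP2. Without cow 489215 these were -0.10, -0.75, 0.71 and 0.46 in the same order.

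Among 18 genes of the response to low oxygen, which as background induces many glycolytic enzymes, 17 were tested and 0 passed limma's adjusted threshold, with a median log2 fold change of 0.01. DDIT4, an inhibitor of mTOR signalling, had 6391, 6539 and 5946 in LF/LCL cows 617, 79 and 527 and 8116, 9297 and 8333 in SF/SCL cows 856, 489215 and 97, without overlap. Its log2 fold change was 0.45 (unadjusted p = 0.0295 and adjusted p = 0.503 with limma), and 0.39 without cow 489215 (adjusted p = 0.0272 with limma). HIF1A, the oxygen-regulated transcription factor, had 7558, 7498 and 8191 in LF/LCL and 9380, 5279 and 10699 in SF/SCL, and its relative EPAS1 had 4409, 5055 and 4799 in LF/LCL and 2757, 7044 and 3638 in SF/SCL. Cow 489215 was thus the lowest for HIF1A and the highest for EPAS1. Without cow 489215 limma called HIF1A at 0.37 (adjusted p = 0.0448), EPAS1 at -0.58 (adjusted p = 0.0331) and NDRG1, named after its values were seen, at -0.66 (adjusted p = 0.0209). P4HA1, a collagen hydroxylase, had a log2 fold change of 0.29, and 0.27 without that cow.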
